A study of Mus musculus with 3 samples.

Results

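The genes described here encode subunits of the mitochondrial respiratory chain and ATP synthase. They comprise 40 nuclear genes and the 13 protein genes of the mitochondrial genome, 53 of the 27998 genes listed in the deposited count matrices. The members were taken by gene symbol from complexes I to V, with earlier results of these data known. All 53 had UMIs (molecules counted once each by a unique identifier) in each of the 3 libraries. The nuclear members hold 10 subunits of complex I, 4 of complex II, 5 of complex III, cytochrome c (Cycs), 11 of complex IV with Ndufa4 counted there, and 9 of complex V. The mitochondrial members hold 7 subunits of complex I, 1 of complex III, 3 of complex IV and 2 of complex V. The study captured single cells of the adult mouse subventricular zone, where neurons are born beside the lateral ventricle, by 10x Chromium 3′ v2 chemistry. All mice, 5 in number per the labels, came from a cross of aSMACreERt2::Rosa26-tdTomato with B6;129S-Sox2tm2Hoch/J on a background of C57/Bl6(3/4) and 129S1SvlmJ(1/4), so both sorted groups carried both reporters. In these mice an inducible Cre driven by smooth muscle actin sequences switches on tdTomato, and GFP is expressed from the Sox2 locus. One library came from 1200 sorted tdTomato-positive/GFP-positive cells, and 2 libraries came from 1200 and 6000 sorted tdTomato-negative/GFP-positive cells. The labels tie no library to a separate animal, and the spread behind each p-value is that between libraries, which may be technical. The groups compared were the tdTomato-positive library against the tdTomato-negative libraries, and cell classes against each other within the libraries.

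The respiratory chain passes electrons from NADH and succinate through complexes I and II, III and IV to oxygen, pumps protons across the inner mitochondrial membrane, and drives ATP synthase, complex V. Complexes I, III, IV and V are mosaics of subunits translated inside the mitochondrion from polycistronic mitochondrial transcripts and subunits imported from the cytosol, whereas complex II is wholly nuclear. In the ventricle wall, ependymal cells beat motile cilia, and the neural lineage passes from astrocyte-like stem cells through transit-amplifying cells to neuroblasts, a course known for a shift between glycolysis and oxidative phosphorylation.

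Sequences of these genes bear on how their UMIs can be assigned. Of the mitochondrial members 12 lie on the plus strand of chrM and mt-Nd6 lies on the minus strand. Neighbouring reading frames on the plus strand overlap at the places shown, and a read within an overlap belongs to both genes. Capitals mark the bases shared by both reading frames (GRCm38, plus strand, chrM:7912-7984 and chrM:10152-10188).
mt-Atp8 and mt-Atp6: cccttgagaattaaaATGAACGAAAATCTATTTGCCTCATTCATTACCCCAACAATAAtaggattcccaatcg
mt-Nd4l and mt-Nd4: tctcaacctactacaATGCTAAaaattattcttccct
The mt-Atp8 and mt-Atp6 frames shared 43 bases and the mt-Nd4l and mt-Nd4 frames shared 7. On opposite strands, mt-Nd5 and mt-Nd6 overlapped by 14 bases, and whether counting used strand is not given in the sources used here, so the low mt-Nd6 counts are uncertain. Over the last 300 bases of the transcript, 15 of 40 nuclear and 8 of 13 mitochondrial members shared a stretch of 50 bases with another annotated gene, and these are uncertain too. Among the nuclear genes named below, Atp5c1 and Cox7c shared such a stretch with 3 other genes each, Cox5a and Atp5o with 2 each, and Ndufs5, Ndufa2 and Ndufc1 with 1 each. Cycs, Cyc1, Ndufb5, Cox7a2, Cox8a, Atp5b, Atp5e, Atp5g3 and Uqcrc1 shared none. Of the mitochondrial members, mt-Co1, mt-Co2 and mt-Atp6 shared such a stretch with 2 other genes each. mt-Nd2, mt-Nd3, mt-Nd4l, mt-Nd5 and mt-Co3 did so with 1 each.

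NRF1, a transcription factor known to bind promoters of nuclear respiratory genes, recognises a core written CGCATGCG. Promoter windows from RefSeq (GRCm38.p6, 250 bases before to 50 after the start) were matched for 30 of the 40 nuclear members. The core, searched on both strands, occurred for 5 of these members (Atp5j, Atp5l, Cox6a1, Cycs and Uqcrc1), or 16.7%. It occurred in 1.87% of all 32851 windows. The first share counts members with a match in any of their windows, and the second counts single windows. The 2 shares are therefore not alike in unit. Windows are shown for Cycs, the nuclear member that differed most between classes, and Cox6a1, which was called in no comparison under TMM scaling, with the core in capitals (minus strand, chr6:50566587-50566666 and chr5:115349076-115349155).
Cycs: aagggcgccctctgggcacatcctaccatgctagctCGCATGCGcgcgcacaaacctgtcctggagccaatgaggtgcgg
Cox6a1: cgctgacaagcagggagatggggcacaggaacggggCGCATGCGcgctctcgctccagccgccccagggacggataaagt
The core began 61 bases before the Cycs start and 161 bases before the Cox6a1 start. In the GRCm38 annotation Cycs spans chr6:50562563-50566538 and Cox6a1 spans chr5:115345642-115348981, both on the minus strand, so each window lies before the gene. The other nuclear genes on which results turn include Ndufb5 (chr3:32736990-32751566, plus strand), Cyc1 (chr15:76343523-76346260, plus strand), Atp5b (chr10:128083273-128090391, plus strand), Cox7a2 (chr9:79755361-79759878, minus strand) and Cox8a (chr19:7215153-7217616, minus strand). The letters CCGGAAG, an ETS element bound by GABPA, occurred for 9 of the 30 members (30.0%) and in 8.86% of all windows. AAGATGGC, a YY1 element, occurred for 3 members (10.0%) and in 2.75% of all windows. These shares differ in unit in the same way. CCGGAAG ends in the letters AAG with which AAGATGGC begins, so those matches may overlap. These matches describe the letters in the windows and are not tests of binding.

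The tdTomato-positive library held 314 barcodes and tdTomato-negative libraries 1 and 2 held 259 and 1127, of which 252, 256 and 1121 passed the cell filter, with median depths of 2535, 2639.5 and 2401 UMIs per cell. Pairs of libraries shared 0 to 2 cell barcodes. The matrices hold called cells only, so free RNA was not measured. Cells were clustered without the 53 members and named from fixed marker lists. The ependymal-like cells carried 15104, 14838 and 16868 CPM (UMIs per 1000000 UMIs of a sum) of their own marker list. These values are for the tdTomato-positive library, negative library 1 and negative library 2, against 275 to 1275 CPM of that list in astrocyte-like cells. The same markers entered the clustering and the naming, so these sums do not test the label. The tdTomato-positive library was 70.2% ependymal-like (177 cells), against 4.69% (12 cells) and 4.01% (45 cells) in the tdTomato-negative libraries. Although sorted for GFP from Sox2, it alone held cells named microglia-like (14), endothelial-like (20) and mural-like (8), whereas transit-amplifying-like and neuroblast-like cells numbered 1 each there. Astrocyte-like cells numbered 16, 44 and 223, and oligodendrocyte-like cells 14, 10 and 32. Transit-amplifying-like cells numbered 44 and 196 and neuroblast-like cells 62 and 392 in the tdTomato-negative libraries. There the neuroblast marker list made up 14731 and 14403 CPM in neuroblast-like and 7043 and 5976 CPM in transit-amplifying-like cells. In neuron-like cells it made up 13815 and 11883 CPM, above the 6599 and 8427 CPM of their own list. These classes are thus not cleanly separate by their markers.

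The 2 genomes ranked the cell classes differently. The 13 mitochondrial members made up 8.11% ± 1.19 of UMIs in ependymal-like cells (SD, n = 3 libraries), 6.90% ± 2.42 in astrocyte-like cells (n = 3), 5.79% ± 3.33 in oligodendrocyte-like cells (n = 3), 3.89% ± 0.62 in oligodendrocyte precursor-like cells (n = 2), 3.24% ± 0.19 in transit-amplifying-like cells (n = 2), 3.13% ± 0.052 in neuron-like cells (n = 2) and 3.01% ± 0.14 in neuroblast-like cells (n = 2). Endothelial-like and microglia-like cells, from the tdTomato-positive library alone, had 5.60% and 3.50%. The 40 nuclear members varied less and in another order. Transit-amplifying-like cells had 1.99% ± 0.11, astrocyte-like cells 1.98% ± 0.0063, ependymal-like cells 1.88% ± 0.13, neuroblast-like cells 1.73% ± 0.14, neuron-like cells 1.56% ± 0.14, oligodendrocyte precursor-like cells 1.49% ± 0.15, and oligodendrocyte-like cells 1.48% ± 0.063 (SD, same n). Endothelial-like cells had 1.44% and microglia-like cells 1.18%.

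Read library by library, the mitochondrial share separated ependymal-like, astrocyte-like and lineage cells in the tdTomato-negative libraries. It was 7.12% and 7.78% in ependymal-like cells of tdTomato-negative libraries 1 and 2, 5.84% and 5.20% in astrocyte-like cells, and 3.10% and 3.37% in transit-amplifying-like cells. Transit-amplifying-like, neuroblast-like (2.91% and 3.11%) and neuron-like cells (3.10% and 3.17%) overlapped, and so did oligodendrocyte-like (4.09% and 3.67%) and oligodendrocyte precursor-like cells (4.33% and 3.45%). In the tdTomato-positive library the ependymal-like, astrocyte-like and oligodendrocyte-like shares lay together at 9.43%, 9.67% and 9.63%. For the nuclear share, the library ranges of every class measured in more than 1 library overlapped those of its neighbours in the order given. Per non-mitochondrial UMI, some classes kept 1 order within both tdTomato-negative libraries. Ependymal-like cells had 1.87% and 2.16%, neuroblast-like cells 1.68% and 1.89%, neuron-like cells 1.51% and 1.71%, and oligodendrocyte precursor-like cells 1.45% and 1.65%. Astrocyte-like, transit-amplifying-like and ependymal-like cells changed order between these libraries, as did oligodendrocyte precursor-like and oligodendrocyte-like cells. Expressed as the log2 ratio of mitochondrial to nuclear member UMIs, transit-amplifying-like cells were lowest at 0.70 in each tdTomato-negative library, and oligodendrocyte-like cells of the tdTomato-positive library were highest at 2.72. Malat1, a nuclear RNA that shares the denominator, took 14.0% to 18.5% of UMIs in astrocyte-like cells, 9.57% to 11.3% in oligodendrocyte-like cells, 5.39% and 6.77% in neuroblast-like cells, 2.87% to 3.74% in ependymal-like cells and 2.38% and 3.25% in transit-amplifying-like cells. Its part in these shares was not tested.

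**Figure D1:**
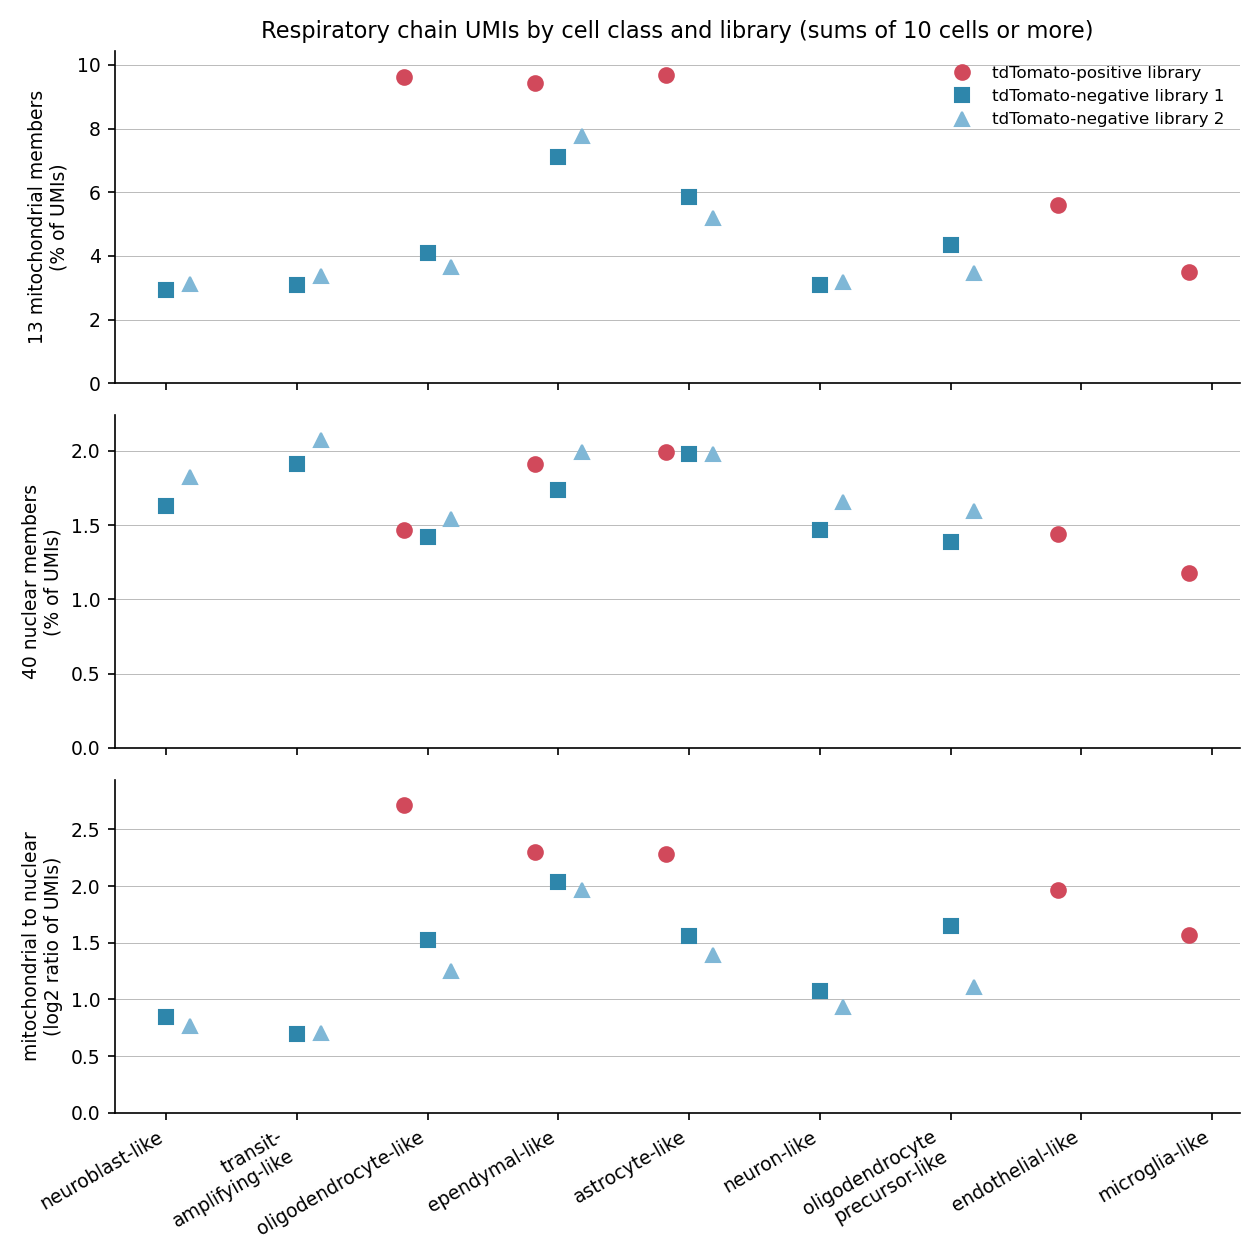
Share of UMIs from the 13 mitochondrial members (top, %), from the 40 nuclear members (middle, %), and the log2 ratio between them (bottom) for each cell class on the x axis. Each point is 1 library's sum over at least 10 cells. The tdTomato-positive points of oligodendrocyte-like, ependymal-like and astrocyte-like cells lie at 9.43% to 9.67% in the top panel, above the tdTomato-negative points of the same class.

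The first comparison asked how the tdTomato-positive library, enriched for ependymal cells, differed from the tdTomato-negative libraries over all kept cells. Mitochondrial members were higher as a group. They made up 8.99% of UMIs in the tdTomato-positive library, against 3.63% and 3.80% in tdTomato-negative libraries 1 and 2, while the nuclear members made up 1.84%, against 1.74% and 1.91%. The ratio of mitochondrial to nuclear member UMIs was 2.39-fold higher (log2 difference 1.26 in the mean, 1.22 and 1.29 against each tdTomato-negative library). In sums over mixed cells, a change in the mix of classes and a change within cells cannot be told apart, nor can fewer cells of a class be told apart from less RNA per cell. Over all 10944 genes tested, 22.9% were called higher and 19.0% lower at adjusted p under 0.05 (edgeR's quasi-likelihood test with 1 residual degree of freedom).

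Against that background 12 of 13 mitochondrial members rose and none fell, with a median log2 fold change of 1.32 over the 13, against -0.07 over all genes tested. For all 13, the tdTomato-positive library lay above both tdTomato-negative libraries. Of the nuclear members 18 lay above both, 20 below both and 2 overlapped. The same counts over all genes tested are not given here. mt-Nd5, a proton-pumping subunit of the complex I membrane arm, rose with a log2 fold change of 1.68 ± 0.30 (SE, adjusted p = 3.05e-07, edgeR's quasi-likelihood test). mt-Co1, the catalytic subunit of cytochrome c oxidase, stood at 16469 CPM in the tdTomato-positive library, against 5669 and 5733 CPM in tdTomato-negative libraries 1 and 2. Its log2 fold change was 1.59 ± 0.32 (SE, adjusted p = 4.99e-06, edgeR). mt-Nd6, mt-Nd4l and mt-Nd4 of complex I rose by 1.77, 1.57 and 1.54 on the log2 scale (adjusted p at most 6.01e-06, edgeR). mt-Co3, of complex IV, mt-Atp8, of ATP synthase, and mt-Nd2, of complex I, rose by 1.39, 1.31 and 1.32, and the other 4 that were called by 0.89 to 1.29. The mt-Atp8 value ranged from 0.77 to 2.14 with 1 tdTomato-negative library left out, and DESeq2 did not call it. mt-Atp6, the subunit lining the proton path of ATP synthase, stood at 21525 CPM in the tdTomato-positive library, against 9331 and 9018 CPM in the tdTomato-negative libraries. The exception was mt-Nd3, with a log2 fold change of 0.54 (adjusted p = 0.151). When genes with low counts were kept in the fit, 7 of the 13 were called.

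Of the 40 nuclear members 1 rose and 1 fell, and their median log2 fold change was -0.05. Ndufb5, an accessory subunit of complex I, rose with a log2 fold change of 0.83 ± 0.31 (SE, adjusted p = 0.0203, edgeR). Atp5c1, the gamma subunit of the ATP synthase rotor, stood at 181 CPM in the tdTomato-positive library, against 375 and 403 CPM in the tdTomato-negative libraries. It fell by 1.06 on the log2 scale (SE 0.34, adjusted p = 0.00637, edgeR). With relative log expression (RLE) scaling, 3 nuclear members rose and 1 fell, and DESeq2 called 1 in all.

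Within ependymal-like cells the gates were far closer. No member passed the test in either direction, where 0.171% of the 4098 genes tested were called higher and 0.122% lower; 2 mitochondrial and 0 nuclear members had an unadjusted p under 0.05 by edgeR, and 1 and 0 by DESeq2, which called no member either. mt-Atp8 had the highest fitted log2 fold change at 0.74 and mt-Nd6 the lowest mitochondrial one at -0.06, while among nuclear members Uqcrq was highest at 0.52 and Sdhc lowest at -0.75 (adjusted p = 0.999 for each). The tdTomato-positive library lay above both tdTomato-negative libraries for 11 of 13 mitochondrial members and overlapped them for 2. The nuclear members were above in 5, below in 8 and overlapping in 27. Such counts over all genes tested are not given here, so these have no background to be read against. The mitochondrial share was 9.43% in the tdTomato-positive library, against 7.12% and 7.78% in tdTomato-negative libraries 1 and 2, and the log2 ratio of the genomes differed by 0.30 in the mean (0.27 and 0.34). mt-Co1 stood at 17843 CPM in the tdTomato-positive library, against 13859 and 13755 CPM in the tdTomato-negative libraries. Over the dissociation response genes, Fos, an immediate early gene, was the single one of 8 tested that rose (log2 fold change 1.55), and its relation to the members was not tested.

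In the other classes found on both sides of the gate, only values can be given. Astrocyte-like cells had a log2 genome ratio of 2.28 in the tdTomato-positive library (16 cells), against 1.56 and 1.4 in tdTomato-negative libraries 1 and 2, a mean difference of 0.80. Oligodendrocyte-like cells had 2.72 in the tdTomato-positive library (14 cells), against 1.53 and 1.25, a mean difference of 1.33. The oligodendrocyte-like class held different cells in each gate. At a finer clustering, Leiden resolution 2, 0 of its 14 cells in the tdTomato-positive library, against 6 of 10 and 12 of 32 in the tdTomato-negative libraries, formed a separate cluster led by Bmp4, Nfasc and Gpr17 that took the oligodendrocyte precursor-like name. The precursor marker list made up 111 CPM of the class in the tdTomato-positive library, against 4680 and 2585 CPM. The cells outside that cluster had log2 ratios of 2.72 in the tdTomato-positive library, against 2.25 (4 cells) and 1.65 (20 cells). The mean difference between gates also depended on depth in this class, at 0.51 (0.28 and 0.74) with cells thinned to 1000 UMIs and 0.45 in cells of 2000 to 5000 UMIs. In astrocyte-like cells it was 0.79 and 0.77 by the same measures. In both classes the nuclear share of the main sums lay close between gates, at 1.99% in the tdTomato-positive library, against 1.98% and 1.98% in astrocyte-like cells, and 1.47% against 1.42% and 1.54% in oligodendrocyte-like cells. The gap between gates in these sums was thus in the mitochondrial members. It was 0.30 in ependymal-like cells, or 0.23 thinned and 0.43 in cells of 2000 to 5000 UMIs, and the difference between classes was not tested. The oligodendrocyte-like cells of the tdTomato-positive library were shallow, with a median of 1633.5 UMIs, against 4376 and 5287 in the tdTomato-negative libraries.

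The kept cells are cut off at 25% mitochondrial UMIs, which truncates the quantity measured. Over that limit lay 54 barcodes of the tdTomato-positive library (17.6% of those past the gene minimum), against 3 (1.16%) and 6 (0.532%) in tdTomato-negative libraries 1 and 2. Ependymal-like barcodes made up 51 of the 54, against 3 of 3 and 5 of 6, and within the ependymal-like class the share over the limit was 22.4% (51 of 228), against 3 of 15 barcodes and 9.80% (5 of 51). They were shallow, with median depths of 1087.5 UMIs in the tdTomato-positive library, against 1073 and 1158 UMIs, and their nuclear members made up 1.60% of non-mitochondrial UMIs, against 1.18% and 1.65%. With no mitochondrial limit the log2 ratio difference between gates was 1.53 over all cells and 0.36 in ependymal-like cells.

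Mitochondrial and nuclear members moved in opposite ways with depth in ependymal-like cells. Pooled over libraries, the mitochondrial share was 15.3% in ependymal-like cells under 2000 UMIs (59 cells), 8.39% at 2000 to under 5000 UMIs (127 cells) and 8.08% from 5000 UMIs (48 cells), while the nuclear share was 1.52%, 1.89% and 2.08% in the same order. In oligodendrocyte-like cells the mitochondrial share was 14.1%, 5.03% and 3.42%, though the lowest bin held 10 cells. In astrocyte-like cells it was 7.21% under 2000 UMIs and 5.12% at 2000 to under 5000 UMIs. Pooled neuroblast-like cells were level between those bins, at 3.01% and 3.13%, with 2.66% from 5000 UMIs (8 cells). In tdTomato-negative library 1 alone the neuroblast-like share was 3.79%, 2.90% and 2.21%, from 12, 47 and 3 cells. Across cells within 1 library, Spearman's rho between mitochondrial share and UMIs, which share the cell's total, was -0.41 in the tdTomato-positive library over 177 ependymal-like cells and 0.07 in 392 neuroblast-like cells of tdTomato-negative library 2. Depth is therefore given beside each class comparison below, and class ratios were recomputed in cells of 2000 to 5000 UMIs.

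**Figure D2:**
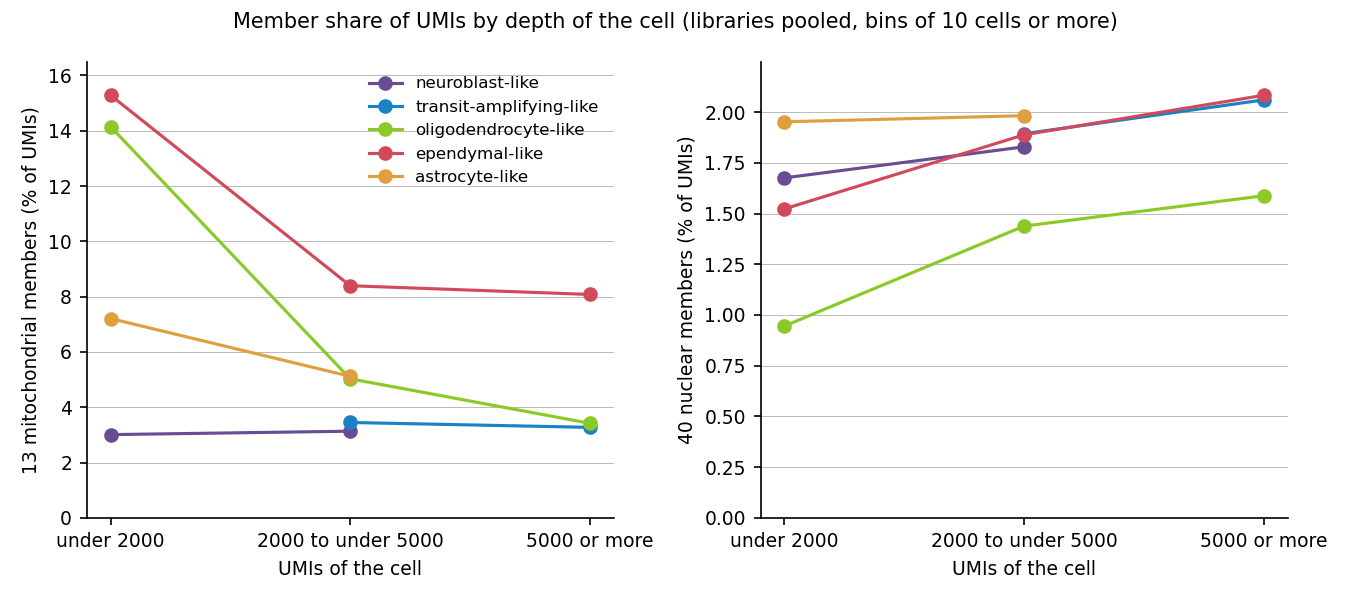
Share of UMIs from the 13 mitochondrial members (left, %) and the 40 nuclear members (right, %) in cells binned by their UMIs (x axis), with the 3 libraries pooled and bins of at least 10 cells. In ependymal-like cells the mitochondrial share is 15.3% in the shallowest bin and 8.08% in the deepest, while the nuclear share is 1.52% and 2.08%.

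The next comparison set ependymal-like cells, which carry motile cilia, against astrocyte-like cells of the same libraries. Of 40 nuclear members 2 rose and 2 fell, and of 13 mitochondrial members 4 rose and none fell, where 16.9% of the 4272 genes tested were called higher and 9.46% lower. The median log2 fold change was -0.11 for the nuclear and 0.29 for the mitochondrial members, against 0.11 for all genes tested. Genes tested between classes, here and below, were those kept out of the clustering, with the members among them and without the markers. Cytochrome c and the protein that reduces it fell together. Cycs, the mobile carrier between complexes III and IV that also acts in apoptosis, stood at 155, 111 and 150 CPM in ependymal-like cells (tdTomato-positive library, negative library 1 and negative library 2, an order kept below), against 529, 418 and 376 CPM in astrocyte-like cells. No ependymal-like value reached the lowest astrocyte-like value. Its log2 fold change was -1.41 ± 0.28 (SE, adjusted p = 6.41e-06, edgeR's quasi-likelihood test), and it was called under each of 11 alternatives that kept all libraries. Without tdTomato-negative library 1 it was -1.2 (adjusted p = 0.158). Cyc1, the heme-bearing subunit of complex III that passes electrons to cytochrome c, stood at 172, 178 and 178 CPM in ependymal-like cells, against 373, 345 and 278 CPM in astrocyte-like cells. It fell by 0.81 on the log2 scale (SE 0.29, adjusted p = 0.0195, edgeR).

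The nuclear members that rose belong to other complexes. Ndufb5 stood at 546, 356 and 616 CPM in ependymal-like cells, against 187, 136 and 260 CPM in astrocyte-like cells, with a log2 fold change of 1.31 ± 0.25 (SE, adjusted p = 2.78e-06, edgeR) and a call under each of 11 alternatives that kept all libraries and with any 1 library left out. Atp5e, the epsilon subunit of ATP synthase, stood at 983, 823 and 851 CPM in ependymal-like cells, against 436, 669 and 508 CPM in astrocyte-like cells, with a log2 fold change of 0.79 ± 0.22 (SE, adjusted p = 0.00243, edgeR). Neither gene's ranges overlapped. Among all nuclear members 4 lay above, 10 below and 26 overlapped between the classes, and the shares over all genes tested are not given here. Without the tdTomato-positive library 9 nuclear members were called, without tdTomato-negative library 1 there were 1, and without tdTomato-negative library 2 there were 2. With RLE scaling 2 nuclear members rose and 5 fell, with a stricter cell filter (500 genes, up to 10% mitochondrial) 1 rose and 11 fell, and at Leiden resolution 2 there were 2 and 13, so the balance of directions depended on the setting.

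Among the mitochondrial members mt-Co1 stood at 17843, 13859 and 13755 CPM in ependymal-like cells, against 14124, 8120 and 6851 CPM in astrocyte-like cells (log2 fold change 0.75 ± 0.18, SE, adjusted p = 0.00031, edgeR). mt-Nd5 stood at 1134, 979 and 811 CPM in ependymal-like cells, against 902, 564 and 342 CPM in astrocyte-like cells (log2 fold change 0.91 ± 0.22, SE, adjusted p = 0.000214, edgeR). Within each library the ependymal-like value was the higher one for both genes, although the ranges over libraries overlapped, as they did for all 13 mitochondrial members. mt-Nd4 rose by 0.57 (adjusted p = 0.0108) and mt-Nd6 by 1.54 (adjusted p = 0.00455), mt-Nd6 on 60, 1 and 25 UMIs in ependymal-like cells, against 2, 4 and 19 UMIs in astrocyte-like cells. mt-Nd1 had the lowest value, a log2 fold change of -0.41 (adjusted p = 0.0952). Without tdTomato-negative library 1 or 2 no mitochondrial member was called, and without the tdTomato-positive library 7 were. Under other settings some were called lower, 2 at Leiden resolution 2 and 1 each with the stricter cell filter, clustering on the other genes (odd Ensembl digit), RLE scaling, DESeq2 and the tdTomato-positive library left out. The log2 genome ratio of ependymal-like cells exceeded that of astrocyte-like cells by 0.02 in the tdTomato-positive library, 0.48 in tdTomato-negative library 1 and 0.57 in tdTomato-negative library 2. In cells of 2000 to 5000 UMIs these differences were 0.11, 0.30 and 0.60, and with no mitochondrial limit 0.36, 0.84 and 0.72. As a median over cells the tdTomato-positive library turned sign, at -0.23. Median depth was 3284, 4069 and 4304 UMIs in ependymal-like cells, against 2109.5, 2121.5 and 2401 in astrocyte-like cells. Malat1 fell by 2.35 and Neat1 by 0.80 on the log2 scale, and their part in the result was not tested.

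**Figure D3:**
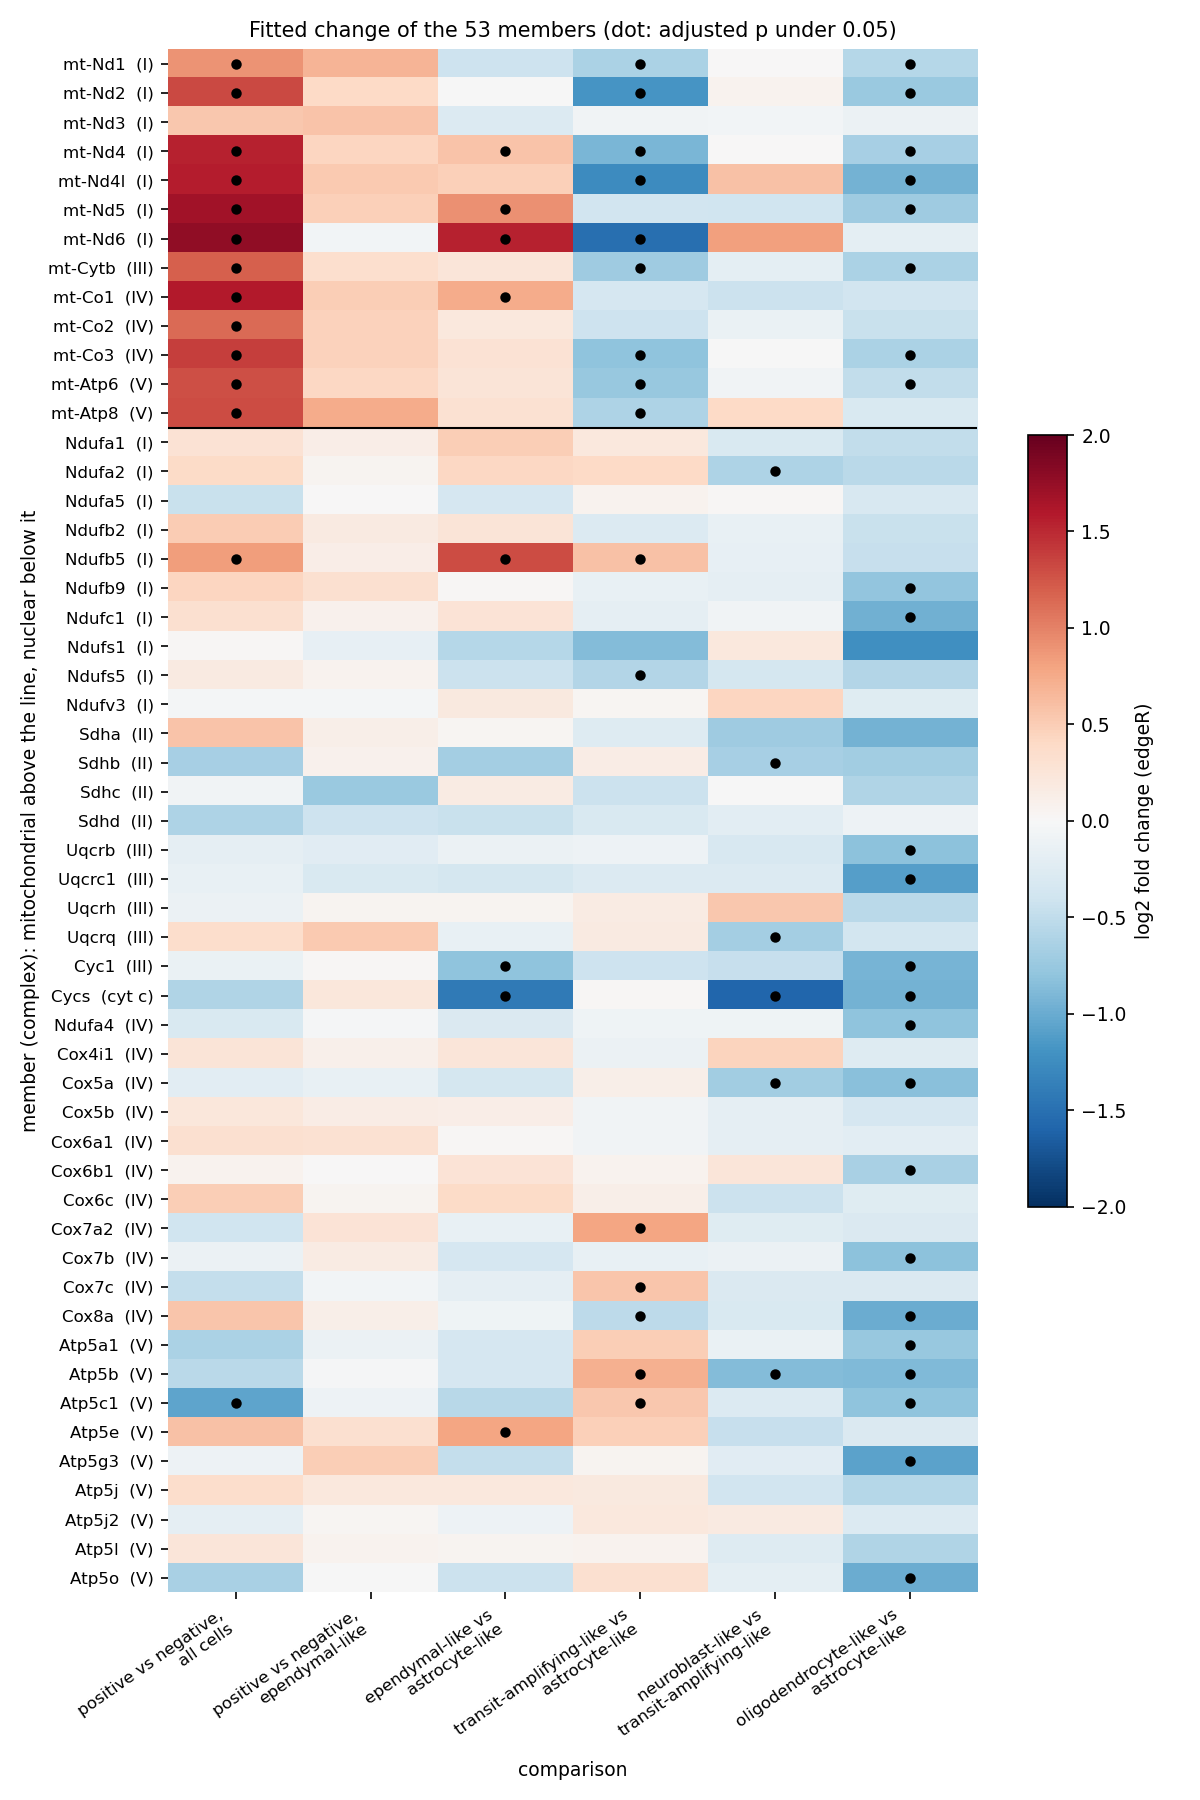
Fitted log2 fold change (colour) of each of the 53 members (rows, with complex) in the 6 comparisons (columns, first-named group over the second). Dots mark adjusted p under 0.05 by edgeR, with 12 of 13 mitochondrial members marked in the all-cell gate comparison and 16 of 40 nuclear members in oligodendrocyte-like cells; under RLE scaling 14 nuclear members of the transit-amplifying-like column change sign.

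Transit-amplifying-like cells, named from markers of cycling progenitors, were set against astrocyte-like cells, the appearance that the stem cells of the lineage themselves have. Their own marker list made up 9030 and 8542 CPM in tdTomato-negative libraries 1 and 2, beside 7043 and 5976 CPM of the neuroblast list. Mitochondrial members fell while nuclear members were mixed. Of 13 mitochondrial members 9 fell and none rose, where 18.4% of the 4272 genes tested were called lower and 23.4% higher. Their median log2 fold change was -0.72, against 0.14 over all genes tested. Under RLE scaling the median of all genes was -0.14, a shift of -0.28. There 13 of 13 mitochondrial members fell, with a median of -1.04, and the share of all genes called is not given here. mt-Nd4l, a small membrane subunit of complex I, stood at 426 and 342 CPM in transit-amplifying-like cells of tdTomato-negative libraries 1 and 2, against 1547 and 633 CPM in astrocyte-like cells there and 1555 CPM in those of the tdTomato-positive library. It fell by 1.26 on the log2 scale (SE 0.22, adjusted p = 1.13e-07, edgeR's quasi-likelihood test). mt-Nd2, another membrane subunit of complex I, stood at 846 and 840 CPM in transit-amplifying-like cells, against 2006, 1987 and, in the tdTomato-positive library, 3951 CPM in astrocyte-like cells. It fell by 1.18 (SE 0.22, adjusted p = 4.42e-07, edgeR). mt-Atp6 stood at 7718 and 7793 CPM in transit-amplifying-like cells, against 15790, 12782 and, in the tdTomato-positive library, 23176 CPM in astrocyte-like cells, and fell by 0.76 (SE 0.21, adjusted p = 0.00113, edgeR). The ranges of all 3 genes were apart. mt-Nd4, mt-Co3, mt-Cytb and mt-Nd1 fell by 0.91, 0.81, 0.72 and 0.63, and mt-Nd6 by 1.5 on few UMIs. The value of mt-Nd3 was nearest to 0, at -0.07 (adjusted p = 0.829). In all 11 alternatives that kept every library, 6 of the 9 were called; with tdTomato-negative library 1 left out 0 were called, with tdTomato-negative library 2 left out 1, and without the tdTomato-positive library 12.

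Within each tdTomato-negative library the log2 genome ratio was lower in transit-amplifying-like cells, with a difference of -0.86 in library 1 and -0.69 in library 2, a mean fold of 0.584. The difference had the same sign in each mosaic complex, at -0.76 for complex I, -0.81 for complex III, -0.58 for complex IV and -1.12 for complex V. Transit-amplifying-like cells were deeper, with medians of 7812 and 6106.5 UMIs, against 2121.5 and 2401 UMIs in astrocyte-like cells. In cells of 2000 to 5000 UMIs the differences were -0.65, from 4 transit-amplifying-like cells against 24 astrocyte-like cells, and -0.42, from 52 against 148.

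Of the 40 nuclear members 5 rose and 2 fell in transit-amplifying-like cells under TMM scaling. Under RLE scaling 2 rose and 15 fell, and 14 of the 40 changed sign between the scalings. The shares of all genes called that are given above belong to TMM scaling. Called both ways in the same direction were Cox7a2 and Atp5b, which rose, and Cox8a and Ndufs5, which fell. Cox7a2, a subunit of complex IV that exists in tissue isoforms, stood at 952 and 951 CPM in transit-amplifying-like cells of the tdTomato-negative libraries, against 711 and 593 CPM in astrocyte-like cells there and 373 CPM in the tdTomato-positive library. Its log2 fold change was 0.79 ± 0.22 (SE, adjusted p = 0.00131, edgeR) under TMM and 0.44 under RLE scaling. Atp5b, the catalytic beta subunit of ATP synthase, stood at 889 and 951 CPM, against 543, 656 and, in the tdTomato-positive library, 560 CPM in astrocyte-like cells, with a log2 fold change of 0.71 ± 0.22 (SE, adjusted p = 0.00438, edgeR). Cox8a, the small ubiquitous subunit of complex IV, stood at 987 and 1042 CPM, against 1515, 1522 and, in the tdTomato-positive library, 1898 CPM, and fell by 0.53 (SE 0.21, adjusted p = 0.0339, edgeR). Ndufs5, an accessory subunit of complex I, fell by 0.59 (adjusted p = 0.0246). Cox7c, Ndufb5 and Atp5c1, with log2 fold changes of 0.56, 0.58 and 0.55, were called under TMM and not under RLE scaling. The lowest nuclear value was that of Ndufs1, the iron-sulfur subunit of complex I, at -0.86 (adjusted p = 0.0579). DESeq2 called 4 nuclear members, all lower. With the doublets called by Scrublet removed and the cells clustered anew, 2 were called. Without either tdTomato-negative library no nuclear member was called.

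**Figure D4:**
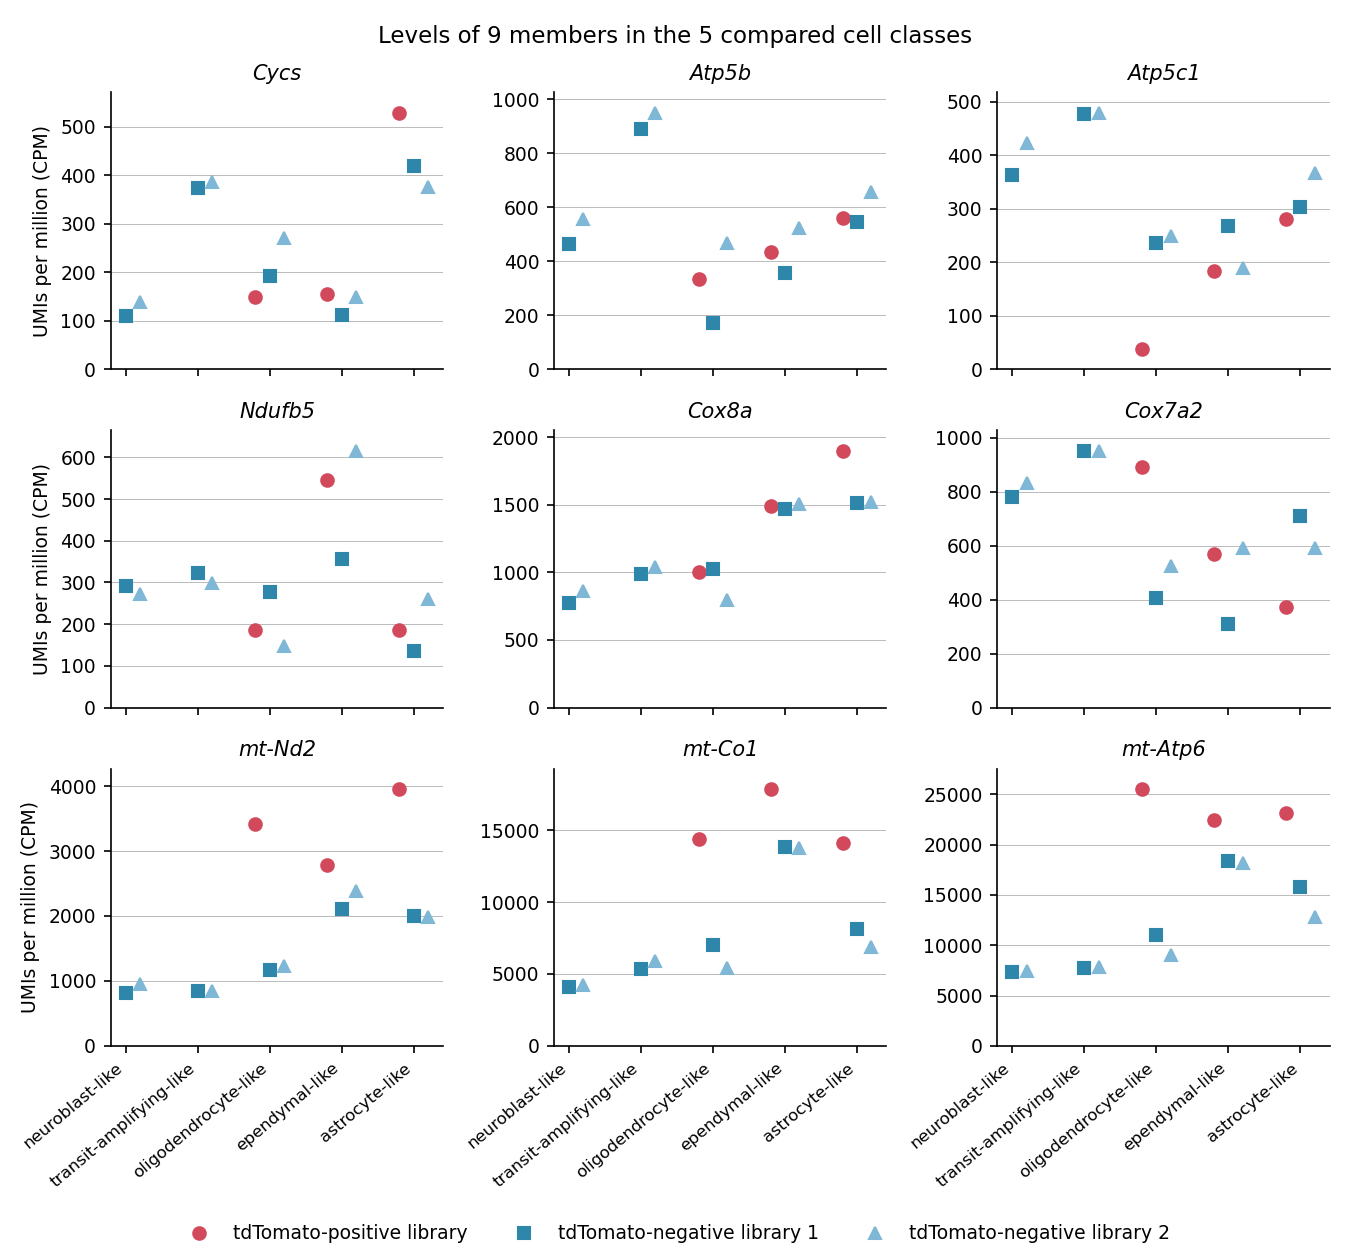
Level in CPM (y axis, linear, from 0) of 9 members in the 5 compared cell classes (x axis), with 1 point per library. Cycs lies at 374 and 387 CPM in transit-amplifying-like cells and at 376 to 529 CPM in astrocyte-like cells, above every neuroblast-like, oligodendrocyte-like and ependymal-like point (110 to 271 CPM).

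From transit-amplifying-like to neuroblast-like cells, some nuclear members fell and no mitochondrial member passed the test. In the lineage, progenitors become migrating neurons at this step, though both classes here carried neuroblast markers, as given above. Of 40 nuclear members 6 fell and none rose, where 10.2% of the 4272 genes tested were called lower and 8.08% higher, so the count lay near that background, and DESeq2 called 2 higher and 2 lower. In all, 33 of the 40 fitted values were negative with a median of -0.23, against -0.04 over all genes tested. Cycs stood at 110 and 139 CPM in neuroblast-like cells, against 374 and 387 CPM in transit-amplifying-like cells. It fell by 1.58 on the log2 scale (SE 0.25, adjusted p = 9.5e-09, edgeR's quasi-likelihood test) and was called under each of 11 alternatives that kept all libraries. Atp5b stood at 462 and 556 CPM in neuroblast-like cells, against 889 and 951 CPM in transit-amplifying-like cells, and fell by 0.87 (SE 0.22, adjusted p = 0.00115, edgeR). For both genes neither neuroblast-like value reached a transit-amplifying-like one. Cox5a, of complex IV, stood at 336 and 315 CPM in neuroblast-like cells, against 494 and 544 CPM in transit-amplifying-like cells, and fell by 0.70 (adjusted p = 0.016). Uqcrq of complex III fell by 0.68 (adjusted p = 0.0208), Sdhb, the iron-sulfur subunit of complex II, by 0.66 (adjusted p = 0.0291), and Ndufa2 of complex I by 0.62 (adjusted p = 0.0344). Cox5a, Uqcrq, Sdhb and Ndufa2 each lost their call with Scrublet calls removed, with no count filter, by DESeq2 and with no replicate block. With Scrublet calls removed the cells were clustered anew, and the neuroblast-like class held 385 cells, against 455 in the main setting. The highest nuclear value was that of Uqcrh, the hinge subunit of complex III, at 0.54 (adjusted p = 0.0709). Under RLE scaling 4 nuclear members rose and 8 fell, among them all 6 named, and without the tdTomato-positive library, which has no sum of either class, 12 were called. With either tdTomato-negative library left out none was called, and Cycs then had log2 fold changes of -1.42 and -1.73 (adjusted p = 0.527 and 0.422).

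The mitochondrial members were near level between these classes, with 6 fitted values positive, 7 negative and a median of -0.01. By edgeR 2 had an unadjusted p under 0.05, and DESeq2 called 0 with 1 at an unadjusted p under 0.05. Under RLE scaling 2 were called higher, mt-Nd4l and mt-Atp8. mt-Nd6 had the highest fitted value at 0.83 (adjusted p = 0.296) and mt-Co1 the lowest at -0.43 (adjusted p = 0.172). mt-Co1 stood at 4116 and 4257 CPM in neuroblast-like cells, against 5369 and 5904 CPM in transit-amplifying-like cells, without overlap. The log2 genome ratio was higher in neuroblast-like cells by 0.14 and 0.06, and in cells of 2000 to 5000 UMIs the differences were -0.02 and -0.10. Median depth was 2727.5 and 2169 UMIs in neuroblast-like cells, against 7812 and 6106.5 UMIs in transit-amplifying-like cells.

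Oligodendrocyte-like cells, of the lineage that myelinates axons, were set against astrocyte-like cells. All 53 fitted values were negative. The class of 56 cells included 18, all from the tdTomato-negative libraries, that formed the precursor-like cluster described above at Leiden resolution 2. Of 40 nuclear members 16 fell, and of 13 mitochondrial members 8 fell, where 10.4% of the 4272 genes tested were called lower and 8.94% higher. The medians were -0.60 for nuclear and -0.58 for mitochondrial members, against -0.08 over all genes tested. Cox8a stood at 1002, 1026 and 796 CPM in oligodendrocyte-like cells, against 1898, 1515 and 1522 CPM in astrocyte-like cells. It fell by 1.00 on the log2 scale (SE 0.22, adjusted p = 6.04e-05, edgeR's quasi-likelihood test). Atp5o, the protein that joins the stalk of ATP synthase to its head, stood at 111, 150 and 294 CPM in oligodendrocyte-like cells, against 311, 439 and 430 CPM in astrocyte-like cells, and fell by 0.99 (SE 0.29, adjusted p = 0.00437, edgeR). Atp5g3, a gene of the proton-carrying ring, fell by 1.07 (adjusted p = 0.00393) and Atp5b by 0.88 (adjusted p = 0.00514). Cycs stood at 148, 192 and 271 CPM in oligodendrocyte-like cells, against 529, 418 and 376 CPM in astrocyte-like cells, and fell by 0.95 (SE 0.29, adjusted p = 0.00651, edgeR). Ndufc1 of complex I, Ndufa4 of complex IV and Uqcrc1, a core protein of complex III, fell by 0.96, 0.80 and 1.11. For 18 of 40 nuclear members the classes did not overlap, all with oligodendrocyte-like cells below. The share of all genes tested without overlap is not given here. The highest nuclear value was that of Sdhd, a membrane anchor of complex II, at -0.10 (adjusted p = 0.922), and the lowest that of Ndufs1 at -1.23 (adjusted p = 0.143).

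Among mitochondrial members mt-Nd4l fell by 0.94 (SE 0.23, adjusted p = 0.000401, edgeR), and mt-Nd2, mt-Nd5, mt-Nd4, mt-Cytb, mt-Co3, mt-Nd1 and mt-Atp6 by 0.75 to 0.50, while mt-Nd3 had the value nearest 0, at -0.12 (adjusted p = 0.807). mt-Nd2 stood at 3413, 1175 and 1236 CPM in oligodendrocyte-like cells, against 3951, 2006 and 1987 CPM in astrocyte-like cells, so the oligodendrocyte-like value was lower within each library and the ranges overlapped, as for all 13. At Leiden resolution 2, with the precursor-like cluster apart, 22 nuclear and 4 mitochondrial members fell. That cluster had a nuclear share of 1.56% and 1.84% in tdTomato-negative libraries 1 and 2, against 1.03% and 1.34% in the other oligodendrocyte-like cells there. The log2 genome ratio of oligodendrocyte-like against astrocyte-like cells differed by 0.44 in the tdTomato-positive library and by -0.03 and -0.15 in tdTomato-negative libraries 1 and 2. In cells of 2000 to 5000 UMIs the differences were -0.01, 0.31 and 0.30, with 7, 6 and 11 oligodendrocyte-like cells, and at Leiden resolution 2 they were 0.44 in the tdTomato-positive library and 0.26 in tdTomato-negative library 2. Median depth was 1633.5, 4376 and 5287 UMIs in oligodendrocyte-like cells, against 2109.5, 2121.5 and 2401 in astrocyte-like cells. With the doublets called by Scrublet removed and the cells clustered anew, 8 nuclear and 1 mitochondrial members were called. Leaving out either tdTomato-negative library left none of either genome. RLE scaling called 21 nuclear members. Their own marker list made up 51456, 45237 and 51968 CPM of the oligodendrocyte-like sums, which enters the denominator of every level in that class.

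The mix of genes within the mitochondrial members varied in 2 ways. Some genes differed by class. mt-Co1 made up 18.9%, 19.5% and 17.7% of mitochondrial member UMIs in ependymal-like cells, in the library order above, against 14.6%, 13.9% and 13.2% in astrocyte-like cells. mt-Nd1, the first reading frame after the ribosomal RNAs, made up 5.01%, 4.19% and 4.30% in ependymal-like cells, against 8.46%, 6.75% and 7.31% in astrocyte-like cells. For neither gene did the classes overlap. Other genes differed by library. mt-Atp8 made up 1.04% in all cells of the tdTomato-positive library, against 1.66% and 0.553% in tdTomato-negative libraries 1 and 2, so the libraries of 1 gate lay on either side of the other gate. The same order of libraries held in each of the classes with all 3 libraries, for example at 1.02%, 1.59% and 0.451% in ependymal-like cells. mt-Nd4l made up 1.98%, 2.47% and 1.5% in ependymal-like cells. Both genes overlap a neighbour's reading frame as shown above, and mt-Atp6, the partner of mt-Atp8, made up 24.0% in all cells of the tdTomato-positive library, against 25.7% and 23.7%. Differences between gates in mt-Atp8 and mt-Nd4l are thus no larger than those between the tdTomato-negative libraries in this measure.

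**Figure D5:**
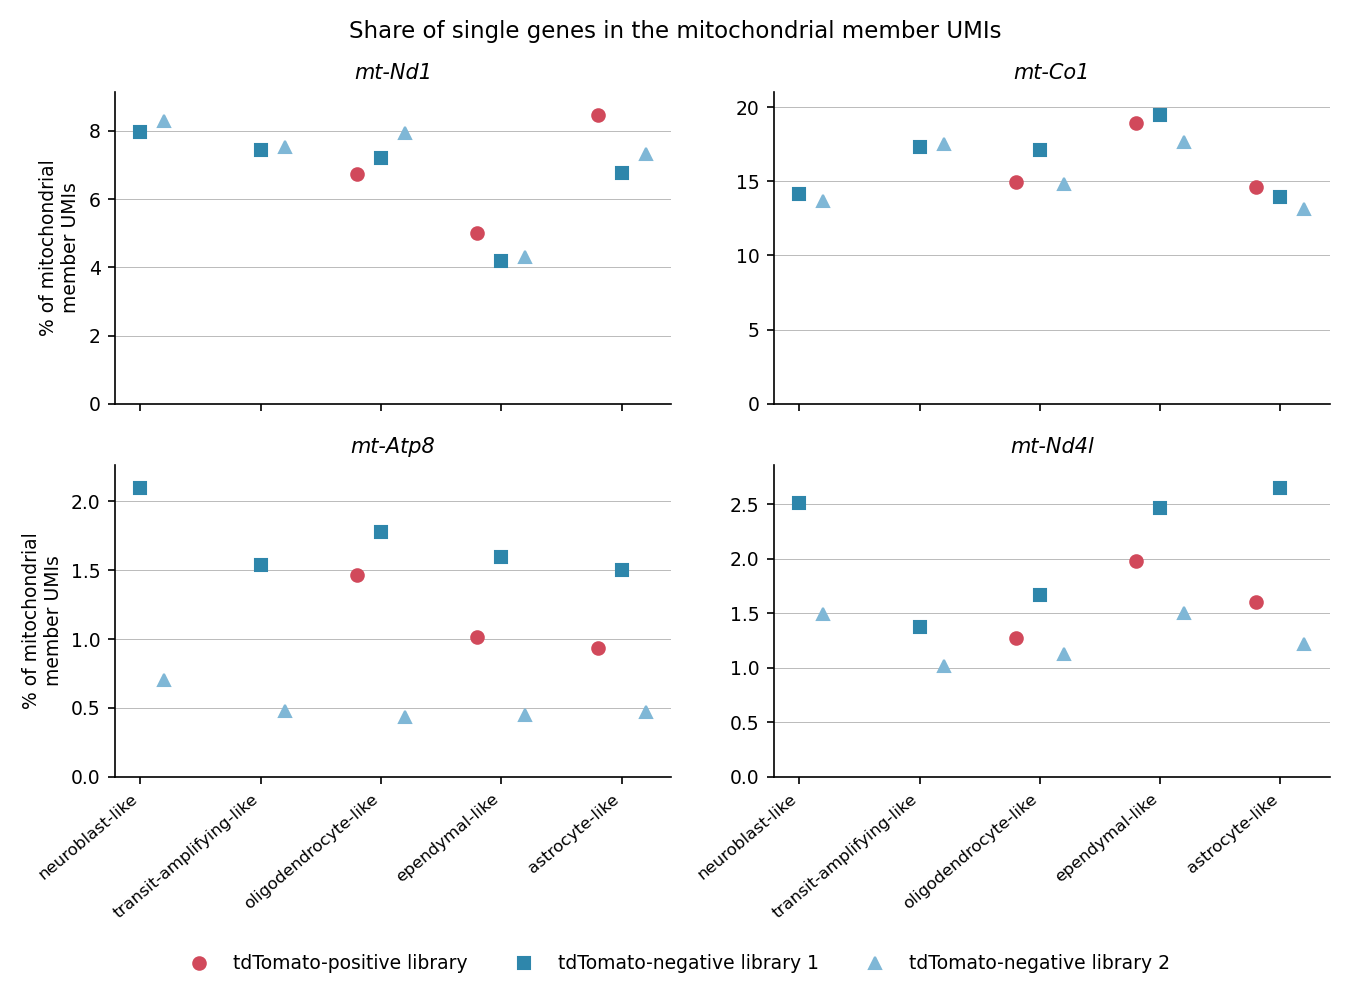
Share of the 13 mitochondrial members' UMIs (y axis, %) taken by mt-Nd1, mt-Co1, mt-Atp8 and mt-Nd4l in the 5 compared classes (x axis), with 1 point per library. mt-Co1 and mt-Nd1 split ependymal-like from astrocyte-like cells, while mt-Atp8 orders the libraries alike in the ependymal-like, astrocyte-like and oligodendrocyte-like classes, from 0.431% to 0.472% in tdTomato-negative library 2 to 1.5% to 1.78% in tdTomato-negative library 1.

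Other respiratory chain genes outside the members were read from fixed lists. The background for every list is the share of all genes tested called higher and lower. It was 22.9% and 19.0% between gates over all cells, and 0.171% and 0.122% within ependymal-like cells. Against astrocyte-like cells it was 16.9% and 9.46% (ependymal-like), 23.4% and 18.4% (transit-amplifying-like) and 8.94% and 10.4% (oligodendrocyte-like). In neuroblast-like against transit-amplifying-like cells it was 8.08% and 10.2%. Of 39 further subunits, 0 rose and 1 fell over all cells of the tdTomato-positive library (Atp5f1, by 1.02), and none was called within ependymal-like cells. In ependymal-like against astrocyte-like cells 2 rose and 4 fell, with Cox7a2l, a supercomplex assembly factor, at 0.76, and Uqcrfs1, the Rieske iron-sulfur protein, at -1.17. In transit-amplifying-like against astrocyte-like cells 3 rose (Cox7a2l 1.02, Atp5f1 0.98, Atp5g2 0.83) and 4 fell, among them Ndufs7 by 0.79. In neuroblast-like against transit-amplifying-like cells 1 rose (Cox7a2l, 0.77) and 3 fell (Atp5g2 by 0.79, Ndufab1 by 0.76 and Ndufc2 by 0.67). In oligodendrocyte-like against astrocyte-like cells 0 rose and 9 fell, led by Ndufa12, which fell by 1.31. Of 9 tissue isoforms, 4 were tested over all cells and 3 rose, namely Cox6b2 by 2.66, Cox7a1 by 2.82 and Ndufa4l2 by 5.40, though 23 of the 29 Ndufa4l2 UMIs in the tdTomato-positive library lay in 8 mural-like cells. Cox6b2 had 98 UMIs in the tdTomato-positive library, against 26 and 68 in the tdTomato-negative libraries, and 92 of the 98 lay in ependymal-like cells. Of the 2 tested between classes, Cox6b2 and Cox7a1 both fell in transit-amplifying-like against astrocyte-like cells, by 2.29 and 2.25, Cox6b2 fell in oligodendrocyte-like cells on 0 to 3 UMIs a library, and neither was called in ependymal-like cells, between gates there, or in neuroblast-like cells. Cox4i2 had 10 UMIs in the tdTomato-positive library, of which 7 lay in the 8 mural-like cells and 2 in endothelial-like cells, and it had 1, 0 and 0 UMIs in ependymal-like cells, against 0, 5 and 27 in astrocyte-like cells, and was not tested there. Cox8c had no UMI.

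Assembly factors, 40 genes that insert cofactors or build the complexes, moved in single genes. Over all cells 3 of 37 tested rose (Sdhaf4, Ndufaf3 and Sco2) and 3 fell. Both shares lay below the 22.9% and 19.0% of all genes called higher and lower. Within ependymal-like cells none of 15 was called. In ependymal-like against astrocyte-like cells 2 of 27 rose, Sdhaf4 by 1.66 and Ndufaf3 by 1.79, and 1 fell, Ndufaf4 by 1.42. In transit-amplifying-like cells 2 rose and 2 fell, in neuroblast-like cells 1 rose and 2 fell, and in oligodendrocyte-like cells 2 fell, Cox20 by 1.46 and Cox10 on 0 to 2 UMIs a library. Another list held 23 genes that copy or transcribe the mitochondrial genome or process or stabilise its RNA. Over all cells 0 of 18 tested rose and 3 fell, and within ependymal-like cells 0 of 5 were called. Of the 11 tested between classes, Polg, the mitochondrial DNA polymerase, fell in ependymal-like, transit-amplifying-like and oligodendrocyte-like cells against astrocyte-like cells. It had 9, 0 and 1 UMIs in ependymal-like cells and 0, 1 and 1 in oligodendrocyte-like cells. Transit-amplifying-like cells had 5 and 33 in the tdTomato-negative libraries, and astrocyte-like cells had 1, 7 and 25. Ssbp1, which binds single-stranded mitochondrial DNA, rose by 0.69 in transit-amplifying-like against astrocyte-like cells and fell by 0.70 in neuroblast-like against transit-amplifying-like cells, and Slirp fell by 0.98 in oligodendrocyte-like cells.

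The nuclear regulators list held 8 genes. Ppargc1a, a coactivator of mitochondrial biogenesis, stood at 2.7 and 6.8 CPM in transit-amplifying-like cells of the tdTomato-negative libraries, against 62.7, 92.2 and, in the tdTomato-positive library, 124 CPM in astrocyte-like cells, and it had no UMI in neuroblast-like cells. It fell by 3.79 in transit-amplifying-like against astrocyte-like cells, fell in oligodendrocyte-like cells on 0 to 1 UMIs a library, and was called lower in neuroblast-like against transit-amplifying-like cells, from 0 UMIs against 1 and 9. Nrf1 and Yy1 rose by 1.25 and 1.24 in transit-amplifying-like against astrocyte-like cells. None of 3 tested was called in ependymal-like against astrocyte-like cells, where Ppargc1a stood at 49.3, 44.5 and 80.5 CPM, against 124, 62.7 and 92.2 CPM, and none of 1 was called between gates within ependymal-like cells. Over all cells Ppargc1a rose by 1.33 and Nrf1 fell by 1.37 in the tdTomato-positive library.

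A further list held genes of 14 other mitochondrial proteins. Their values are transcript counts, and organelle content was not measured. Of 14, 1 rose over all cells of the tdTomato-positive library, the carrier Ucp2 by 3.91, and 4 fell, among them Tomm20 by 1.56 and Slc25a4 by 1.2; none of 13 was called within ependymal-like cells. In ependymal-like against astrocyte-like cells 2 of 13 rose, Ucp2, on 59, 4 and 20 UMIs in ependymal-like cells against 0, 0 and 2 in astrocyte-like cells, and the chaperonin Hspd1 by 1.80, and 3 fell, among them Cs, citrate synthase, by 1.19. In transit-amplifying-like against astrocyte-like cells 5 rose, led by Hspd1 at 1.75 and Phb2 at 1.56, and Cs fell by 1.01. In neuroblast-like against transit-amplifying-like cells 2 fell, Slc25a5, an ADP/ATP carrier, by 2.08 and Hspd1 by 1.5. Slc25a4, another ADP/ATP carrier, was not among those called. In oligodendrocyte-like against astrocyte-like cells 1 rose and 5 fell, among them Cs by 2.42. The dissociation response list moved with the gate and the classes: 7 of 13 genes rose and 1 fell over all cells of the tdTomato-positive library (among them Junb by 3.42, with 57 of its 125 UMIs there in 14 microglia-like cells, as were 16 of 34 Atf3 and 15 of 23 Zfp36 UMIs), 6 of 11 rose in ependymal-like and 7 of 11 in transit-amplifying-like against astrocyte-like cells, 4 of 11 fell in neuroblast-like against transit-amplifying-like cells, and 1 rose and 1 fell in oligodendrocyte-like cells. Its summed level over all cells was 1666 CPM in the tdTomato-positive library, against 784 and 981 CPM in tdTomato-negative libraries 1 and 2, and its part in the member results was not tested. Of the RNA quality pair, Neat1 rose by 2.21 over all cells and by 1.64 in oligodendrocyte-like cells and fell by 3.80 in transit-amplifying-like cells, and Malat1 fell by 2.47 in transit-amplifying-like and by 0.84 in oligodendrocyte-like against astrocyte-like cells and rose by 1.11 in neuroblast-like against transit-amplifying-like cells.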

How the data were processed

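Single cells were measured by 10x Chromium 3′ v2 libraries, per the labels' protocols. The authors deposited raw UMI counts per gene and barcode in a matrix for each library. Seurat 1.4.0.15, STAR, Cell Ranger and the builds GRCm38.p5 and mm10 are named in the submitters' processing notes; roles and strand setting: not given in the sources used here. Members and gene lists were chosen with earlier results of these data known.

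The cell filter was at least 300 genes and a mitochondrial share up to 25% (252 cells kept of the tdTomato-positive library, 256 and 1121 of the tdTomato-negative libraries). Counts were scaled to 10000 per cell and clustered with 1000 variable genes, 20 components, 15 neighbours and Leiden resolution 1 (scanpy 1.11.5, anndata 0.12.19, igraph 0.11.9, Python 3.11.15, seed 1). Genes ending in an even Ensembl digit and the markers were used, without members or lists. Clusters took the name of the list with the most markers among their 10 leading genes, ranked by fold with 20 CPM added. No doublets were removed in the main analysis, and Scrublet called 9 cells of the tdTomato-positive library and 2 and 3 of the tdTomato-negative libraries. Alternatives that changed the cells kept, the Leiden resolution or the clustering genes clustered and named the cells anew.

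Cells are not replicates. UMIs were summed over each library, or over each class of at least 10 cells within it. Depth was 720340 to 3585917 UMIs per library. The sums were tested by edgeR 4.0.16 (R 4.3.3, limma 3.58.1) with TMM, filterByExpr, the quasi-likelihood test and Benjamini-Hochberg adjustment at 0.05. Gate fits were adjusted over all genes tested. Class fits tested and adjusted only genes kept out of the main clustering. Those were genes ending in an odd Ensembl digit plus the members and lists, without the markers. The class fit held 19 sums with library as a block (8 residual degrees of freedom), since class sums with the same library number come from the same library. The gate fits had 1. The steps were tested on simulated data. The genome ratio is a value without a test. Genes are named where called (at most 8 of each genome, smallest p first) or at either end of the fold changes, and from other lists at most 3 called genes in each direction. Genes beyond that rule, among them Cox6a1, mt-Atp6 in the gate comparison and Cox4i2, were chosen after their values were seen. Alternatives were a stricter filter (500 genes, 10%), no mitochondrial limit, Scrublet calls removed, Leiden 0.5 and 2, odd-digit clustering, RLE, no count filter, nuclear library sizes, DESeq2 1.42.0, no replicate block, thinning to 1000 UMIs, cells of 2000 to 5000 UMIs (chosen after seeing the data) and each library left out.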

Additional observations from a re-analysis of the deposited data

Results flagged for a closer look

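The log2 ratio of mitochondrial to nuclear member UMIs in oligodendrocyte-like against astrocyte-like cells pointed one way in the tdTomato-positive library and the other way in both tdTomato-negative libraries. It was 0.44 in the tdTomato-positive library, against -0.031 and -0.15 in tdTomato-negative libraries 1 and 2. The pattern did not hold under other settings: it was -0.13 against 0.36 and -0.066 with cells thinned to 1000 UMIs, 0.51 against 0.30 and 0.050 as a median over cells, and -0.0084 against 0.31 and 0.30 in cells of 2000 to 5000 UMIs. The tdTomato-negative sums also held the precursor-like cells, which the tdTomato-positive one lacked, and at Leiden resolution 2, where those form a cluster of their own, it was 0.44 against 0.26 in tdTomato-negative library 2. By complex it was 0.044 against -0.15 and -0.10 for complex I, 1.12 against -0.36 and -0.23 for complex III, and 0.86 against -0.032 and -0.11 for complex V. In ependymal-like against astrocyte-like cells the complex I ratio was -0.54 in the tdTomato-positive library, against 0.17 and 0.22 in the tdTomato-negative libraries. These differences between gates were not tested, since the tdTomato-positive gate has 1 library. The tdTomato-positive sums hold 14 oligodendrocyte-like and 16 astrocyte-like cells.

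Barcodes left out of the comparisons for their mitochondrial share were counted among those past the gene minimum. They made up 17.6% in the tdTomato-positive library, against 1.16% and 0.532% in tdTomato-negative libraries 1 and 2. Among ependymal-like barcodes alone the share was 22.4%, against 3 of 15 barcodes and 9.80%.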

How the results depend on the processing

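Counts of called members are given as nuclear, then mitochondrial. The shares of all genes called that are given above belong to the main setting, and those under the other settings are not given here. Over all cells of the gates, 2 nuclear members were called, against 4 with RLE scaling or nuclear library sizes and 1 with no count filter or DESeq2, and 12 mitochondrial members, against 7 with no count filter. Within ependymal-like cells none was called under any setting run. For ependymal-like against astrocyte-like cells, the 4 nuclear calls became 12 with the stricter filter, 15 at Leiden 2, 7 with RLE and 2 with no count filter, and the 4 mitochondrial calls 10 with no mitochondrial limit, 7 at Leiden 2, 8 with odd-digit clustering and 2 with no replicate block. For transit-amplifying-like against astrocyte-like cells, the 7 nuclear calls became 16 with the stricter filter, 2 without Scrublet calls, 17 with RLE, 1 with no count filter, 4 with DESeq2 and 1 with no replicate block. For neuroblast-like against transit-amplifying-like cells, the 6 nuclear calls became 11 with the stricter filter, 2 without Scrublet calls, 12 with RLE and 1 with no count filter or no replicate block, and the 0 mitochondrial calls became 2 with the stricter filter or RLE and 1 with no mitochondrial limit, Leiden 2 or odd-digit clustering. For oligodendrocyte-like against astrocyte-like cells, the 16 nuclear calls became 8 without Scrublet calls, 2 with no count filter and 6 with no replicate block, and the 8 mitochondrial calls 4 with no mitochondrial limit, Leiden 2 or DESeq2, 3 with the stricter filter, 5 at Leiden 0.5, and 1 without Scrublet calls, with no count filter or with no replicate block. Library is the block, and class sums of 1 library are paired by it.

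With 1 library left out, nuclear and mitochondrial calls ranged from 1 to 9 and 0 to 7 for ependymal-like, 0 to 8 and 0 to 12 for transit-amplifying-like, 0 to 12 and 0 to 2 for neuroblast-like, and 0 to 17 and 0 to 8 for oligodendrocyte-like comparisons. Lowest counts came from leaving out a tdTomato-negative library, which left 2 residual degrees of freedom. The gate comparisons have no test with a library left out.

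The log2 genome ratio between gates over all cells (1.26) was 1.17 thinned, 1.21 as a median over cells, 1.53 with no mitochondrial limit and 1.01 with the stricter filter. Within oligodendrocyte-like cells (1.33) it was 0.51 thinned, 1.06 at Leiden 2 and 0.45 in cells of 2000 to 5000 UMIs. For ependymal-like against astrocyte-like cells (0.36) it was 0.64 with no mitochondrial limit and 0.54 thinned. Within ependymal-like cells between gates (0.30) it was 0.23, 0.38, 0.36 and 0.17 under the same settings, and 0.43 in cells of 2000 to 5000 UMIs. For transit-amplifying-like against astrocyte-like cells it was -0.61 with the stricter filter and -0.53 in cells of 2000 to 5000 UMIs, for neuroblast-like against transit-amplifying-like cells -0.061 in those cells, and for oligodendrocyte-like against astrocyte-like cells 0.42 with the stricter filter.

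Some log2 fold changes turned sign. Between gates in ependymal-like cells, mt-Atp8 ranged from -0.10 to 1.45 and mt-Nd6 from -0.46 to 2.03 with a tdTomato-negative library left out, and mt-Nd6 was 0.29 with no mitochondrial limit, 0.22 with the stricter filter, 0.021 with no count filter and 0.20 with DESeq2. In transit-amplifying-like against astrocyte-like cells mt-Nd3 ranged from -0.32 to 0.13 with a library left out. In oligodendrocyte-like against astrocyte-like cells Sdhd was 0.057 with odd-digit clustering and -0.15 to 0.54 with a library left out, and mt-Nd3 was 0.16 with the stricter filter, 0.050 at Leiden 2, 0.12 with odd-digit clustering and -0.22 to 0.19 with a library left out. In ependymal-like against astrocyte-like cells Neat1 ranged from -1.02 to 0.014, 0.014 without tdTomato-negative library 1. The causes were not tested. The number of libraries, the 10 to 16 cells behind several sums and the mitochondrial limit bound what these data resolve, and with 1 tdTomato-positive library no spread within that gate was measured.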
